A study of Mus musculus with 2 samples.

Results

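The 40 cell cycle genes described here were given as a fixed list of symbols and are 40 of the 32285 genes measured in single-cell RNA libraries of tumour-infiltrating immune cells. They comprise 15 genes used in S phase, 24 used in mitosis, and Stmn1, a regulator of microtubule assembly that was placed in neither list. All cells came from wild type BALB/c mice carrying subcutaneous tumours of the MFC line, sorted for CD45 from digested tumours. In the TB library the mice received thonzonium bromide, a quaternary ammonium surfactant, at 50 mg/kg every other day from day 6 and were killed on day 10, and in the PBS library they received PBS. Each group is 1 library, the number of mice per library is not given in the labels, and no difference between TB and PBS therefore has a replicate check: intervals are 95% and cover counting error only.

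Cells that divide copy their DNA in S phase and separate the copies in mitosis. Transcripts for the replication machinery build up as cells enter S phase, largely under E2F factors, and transcripts for the mitotic machinery build up later, in G2 and mitosis, largely under the B-MYB and FOXM1 branch, whose target promoters often carry a CHR element with CCAAT boxes upstream. In tumours, natural killer (NK) cells and activated T cells can divide locally, and neutrophils are largely postmitotic. Free RNA in a droplet can give single mitotic UMIs (unique molecular identifiers, 1 per captured RNA molecule) to a cell that does not divide.

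Promoters are shown for 4 mitotic genes (Mki67, the gene of the Ki-67 proliferation antigen, Top2a, DNA topoisomerase II alpha, Cdk1, the kinase that drives entry into mitosis, and Cdc20, an activator of the anaphase-promoting complex) and for 2 S-phase genes (Mcm6, a subunit of the replicative helicase, and Hells, a chromatin remodeller). Each line gives the 130 bases just before the RefSeq start in GRCm38.p6, 5′ to 3′ on the gene's own strand. Capitals mark TTTGAA, the CHR core, or its reverse complement in the mitotic genes, and an E2F form (TTTCCCGC, TTTGGCGC or TTTCGCGC, either strand) in the S-phase genes. In Mcm6 the first capital run holds 2 overlapping E2F forms on opposite strands. Every window shown holds a match. Most genes of either list with a RefSeq promoter had no such match of their list in their 130 bases.
Mki67 (chr7:135716380-135716509, minus strand): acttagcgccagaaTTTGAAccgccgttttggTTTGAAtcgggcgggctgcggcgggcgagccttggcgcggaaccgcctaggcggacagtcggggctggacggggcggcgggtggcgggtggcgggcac
Top2a (chr11:99024190-99024319, minus strand): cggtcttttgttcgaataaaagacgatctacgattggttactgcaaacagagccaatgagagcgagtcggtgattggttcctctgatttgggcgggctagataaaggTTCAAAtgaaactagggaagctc
Cdk1 (chr10:69352913-69353042, minus strand): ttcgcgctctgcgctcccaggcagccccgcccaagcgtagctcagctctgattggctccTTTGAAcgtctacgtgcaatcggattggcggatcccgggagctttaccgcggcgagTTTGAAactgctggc
Cdc20 (chr4:118437344-118437473, minus strand): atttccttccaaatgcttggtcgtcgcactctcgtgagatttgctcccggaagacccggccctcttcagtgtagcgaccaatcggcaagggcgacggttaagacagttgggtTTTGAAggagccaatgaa
Mcm6 (chr1:128359706-128359835, minus strand): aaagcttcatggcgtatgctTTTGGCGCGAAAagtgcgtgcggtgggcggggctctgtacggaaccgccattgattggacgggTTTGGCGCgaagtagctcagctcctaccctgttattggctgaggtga
Hells (chr19:38930860-38930989, plus strand): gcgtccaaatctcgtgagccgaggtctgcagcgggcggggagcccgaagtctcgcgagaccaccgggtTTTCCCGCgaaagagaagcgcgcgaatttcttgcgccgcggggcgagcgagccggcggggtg
RefSeq promoters of 300 bases, 250 before to 50 after the start, were matched for 34 of the 40 genes, 14 of the S-phase and 20 of the mitotic list. TTTGAA, searched on both strands, lay in 15 of the 20 mitotic promoters (75%) and in 1 of the 14 S-phase promoters (7.14%), against 18.1% of all 27025 promoters of that length. Any of the 3 E2F forms lay in 1 of 20 mitotic promoters (5%), that of Cdk1, and in 6 of 14 S-phase promoters (42.9%), against 1.91% of all. CCAAT lay in 18 of 20 mitotic promoters (90%) and 10 of 14 S-phase promoters (71.4%), against 37.9% of all. These are letter matches within the window and say nothing of binding.

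Barcodes were kept with 200 or more detected genes and 20% or fewer mitochondrial UMIs, which left 5833 cells in the TB library (median 7259 UMIs) and 6419 in the PBS library (median 4300 UMIs). The libraries had 14 barcodes in common, 9 of them kept in both. Cells were gated on raw marker UMIs, and a cell had to be positive for 1 lineage only. The NK gate held 1092 TB and 1261 PBS cells, the CD8 T gate 385 and 239, the Foxp3 T gate 111 and 232, the macrophage gate 1303 and 612, the dendritic gate 123 and 77, and the B gate 491 and 217. Barcodes positive for 2 or more lineages, 1006 in TB and 834 in PBS, were set aside. In the NK, Foxp3 T, macrophage, dendritic and B gates all 5 check markers of that type, which the gate did not use, were above 50 CPM (UMIs per 1000000 UMIs of the gate) in both libraries. In the CD8 T gate all 5 were above it in TB and 4 in PBS, where the lowest stood at 12.7 CPM. The summed CD8 markers of that gate stood at 11767 CPM in TB and 2870 CPM in PBS. The CD8 T gate thus held cells with unlike levels of these markers in the 2 libraries. Summed haemoglobin and other erythroid marker RNA differed between the libraries: it stood at 677 CPM in TB and 10253 CPM in PBS in the NK gate, at 232 and 4542 CPM in the CD8 T gate, and at 2720 and 3715 CPM in the macrophage gate. Its part in the results was not tested.

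A few very deep barcodes with RNA of Rhox5, a homeobox gene of reproductive tissue, and Cald1, the caldesmon gene of contractile and stromal cells, passed the immune gates. With at least 5 UMIs of each gene there were 1 such barcode in the NK, macrophage and dendritic gates and 2 in the B gate in TB, and 1 in the NK and macrophage gates and 2 in the dendritic gate in PBS. The CD8 T and Foxp3 T gates had none in either library. All of these barcodes counted as cycling, so list levels are given with and without them.

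In NK cells the cycling share was lower in TB. A cell was called cycling with 2 or more UMIs of Mki67 and Top2a together. In the NK gate 160 of 1092 TB cells (14.7%, exact Clopper-Pearson interval 12.6 to 16.9%) and 266 of 1261 PBS cells (21.1%, 18.9 to 23.5%) were cycling. The ratio of TB to PBS was 0.695 (exact conditional interval 0.567 to 0.848). With every cell thinned to 2000 UMIs, which left out 18 TB and 117 PBS cells as too shallow, the shares were 3.63% (39 of 1074) in TB and 7.60% (87 of 1144) in PBS, a ratio of 0.477 (0.319 to 0.704). The NK share was lower in TB at full depth and at equal depth. NK cells made up 30.1% of all cycling cells in TB and 36.3% in PBS, while they were 18.7% of kept cells in TB and 19.6% in PBS.

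In the CD8 T gate no difference in the share was detectable: 64 of 385 TB cells (16.6%, 13.0 to 20.7%) and 40 of 239 PBS cells (16.7%, 12.2 to 22.1%) were cycling, and the ratio was 0.993 (0.659 to 1.51). Thinned to 2000 UMIs, the CD8 T shares were 6.35% in TB and 6.49% in PBS. Among Foxp3 T cells 10 of 111 (9.01%) in TB and 28 of 232 (12.1%) in PBS were cycling, a ratio of 0.746 (0.324 to 1.58), and after thinning the order turned, with 6.60% (7 of 106) in TB and 4.72% (10 of 212) in PBS. Both Foxp3 intervals span 1, so neither order was resolved. At 4 or more UMIs the Foxp3 T shares were 4.50% (5 cells) in TB and 1.29% (3 cells) in PBS. In PBS the cycling Foxp3 T cells stood at 461 CPM of the S-phase list, against 350 CPM in the other Foxp3 T cells. In TB these levels were 1741 and 393 CPM. Of the 140 S-phase UMIs of cycling Foxp3 T cells in TB, 3 cells held 63, 57 and 12. The TB level of cycling cells was thus set by few cells and does not describe the others.

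Macrophages and B cells seldom passed the threshold. In the macrophage gate 38 of 1303 TB cells (2.92%) and 22 of 612 PBS cells (3.59%) were cycling, a ratio of 0.811 (0.468 to 1.44). Dendritic cells gave 10 of 123 (8.13%) in TB and 4 of 77 (5.19%) in PBS, and B cells 8 of 491 (1.63%) in TB and 3 of 217 (1.38%) in PBS. Without the Rhox5 and Cald1 barcodes the dendritic shares were 7.38% (9 of 122) in TB and 2.67% (2 of 75) in PBS. The B shares were then 1.23% (6 of 489) in TB and 1.38% (3 of 217) in PBS, so the B order turned. The ratio intervals of both gates span 1 with and without those barcodes. Neutrophils, which should lack mitotic RNA, gave 2 of 161 cells (1.24%, median depth 3566 UMIs) in TB and 0 of 99 in PBS (median depth 3083 UMIs), where a count of 0 allows up to 3.03% taken as 3 cells (exact upper bound 3.66%). At full depth the B and macrophage shares of each library lay within its neutrophil interval and were not distinguishable from it. Thinned to 2000 UMIs, the macrophage shares of 0.326% in TB and 0.998% in PBS also lay within the neutrophil intervals, at 0.694% in TB and 0% in PBS, where 0 of 70 allows up to 4.29% taken as 3 cells (exact upper bound 5.13%).

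**Figure D1:**
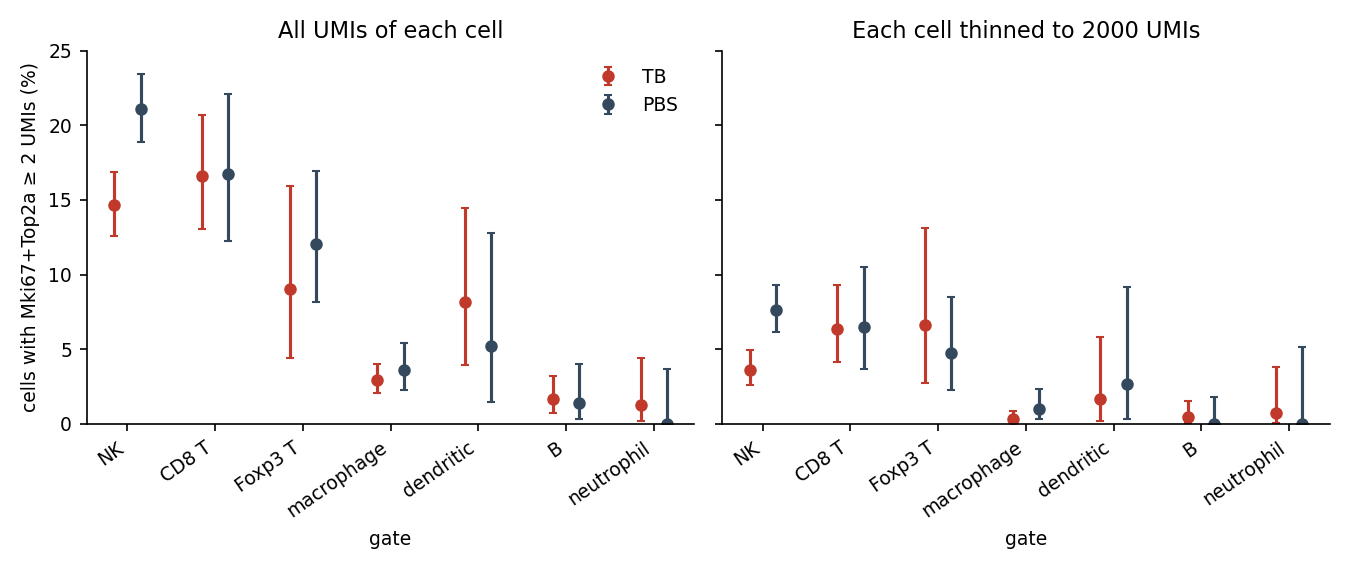
Share of cells with 2 or more UMIs of Mki67 and Top2a together (y axis, percent) by gate (x axis), for TB (red, left) and PBS (dark, right), with all UMIs and after thinning to 2000 UMIs per cell; bars are exact 95% Clopper-Pearson intervals. In the NK gate TB lies below PBS in both panels (14.7 against 21.1%, and 3.63 against 7.60%), and the intervals of each other gate overlap.

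A gate of naive-like T cells, taken on Lef1 and Dapl1 because resting T cells should seldom cycle, was not low. It held 13 cycling cells of 191 (6.81%) in TB and 23 of 192 (12.0%) in PBS, and 97 TB and 98 PBS cells of it were also in the CD8 T gate. In each library 1 of its cycling cells was a Rhox5 and Cald1 barcode, and its shares were not computed without them. Thinned to 2000 UMIs, its shares were 1.60% in TB and 6.99% in PBS, a ratio of 0.228 (0.0417 to 0.831). Barcodes positive for both T and NK markers, which were kept out of all T and NK results, were cycling at 25.6% of 583 in TB and 26.0% of 603 in PBS. Of the barcodes positive for both T and macrophage markers, also set aside, 34 of 140 (24.3%) were cycling in TB and 5 of 64 (7.81%) in PBS.

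S-phase and mitotic RNA were also read cell by cell. After thinning to 2000 UMIs, a cell was assigned to a list at 3 or more of its UMIs. In the NK gate 113 of 1074 TB cells (10.5%, 8.75 to 12.5%) and 135 of 1144 PBS cells (11.8%, 9.99 to 13.8%) had S-phase UMIs only. Cells with both lists made up 2.42% (1.59 to 3.53%) in TB and 6.21% (4.88 to 7.76%) in PBS, and cells with mitotic UMIs only 3.82% (2.75 to 5.14%) in TB and 6.64% (5.27 to 8.24%) in PBS. The intervals of the S-phase-only share overlap widely, and the shares with mitotic UMIs were lower in TB. The share of NK cells with mitotic UMIs, alone or with S-phase UMIs, had a ratio of 0.485 (0.358 to 0.652), against 0.892 (0.688 to 1.15) for S-phase UMIs only. These sets are not alike, because cells with both lists count on the mitotic side only. Cells with both lists also carry S-phase UMIs, so 0.892 is not the ratio of all cells with S-phase UMIs. Cells assigned to either list made up 16.8% in TB and 24.7% in PBS. At 1000 UMIs per cell the S-phase-only ratio was lower, at 0.624 (0.413 to 0.931). Of all NK cells assigned to a list, 62.8% (55.3 to 69.9%) in TB and 47.9% (41.9 to 53.9%) in PBS had S-phase UMIs only.

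CD8 T cells did not show this pattern at the depth available. S-phase-only cells were 7.94% in TB and 9.52% in PBS, and the share with mitotic UMIs had a ratio of 1.05 (0.595 to 1.89). In the Foxp3 T gate 14 of 106 TB cells (13.2%) and 15 of 212 PBS cells (7.08%) reached either list, with intervals of 7.41 to 21.2% and 4.01 to 11.4%. Macrophages reached either list in 1.55% of TB cells (0.934 to 2.41%) and 4.99% of PBS cells (3.25 to 7.28%), intervals that do not overlap, and neutrophils in 1 of 144 TB cells and 0 of 70 PBS cells.

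**Figure D2:**
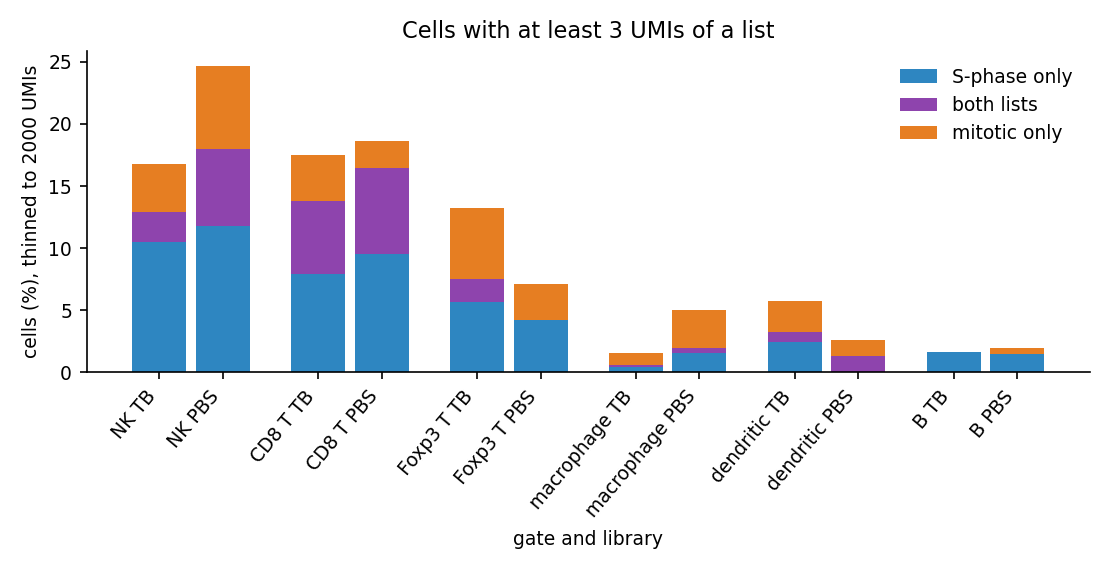
Share of cells (y axis, percent) with 3 or more UMIs of the S-phase list only (blue), of both lists (purple) or of the mitotic list only (orange), by gate, with TB left of PBS and every cell thinned to 2000 UMIs. In the NK gate the blue parts are 10.5% in TB and 11.8% in PBS, while the purple and orange parts together are smaller in TB.

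Summed over the NK gate, the S-phase list stood at 859 CPM (Poisson interval 843 to 876) in TB and 956 CPM (939 to 974) in PBS, a ratio of 0.898. The mitotic list stood at 647 CPM (632 to 661) in TB and 824 CPM (808 to 840) in PBS, a ratio of 0.785 (0.762 to 0.809). Without the 2 Rhox5 and Cald1 barcodes the ratios were 0.876 and 0.770, and at 2000 UMIs per cell 0.814 and 0.618. S-phase UMIs per mitotic UMI were 1.33 (1.29 to 1.37) in TB and 1.16 (1.13 to 1.19) in PBS. Within cycling NK cells this ratio was the same to 2 digits, 0.828 in TB and 0.827 in PBS, and the list levels were close: 1821 CPM in TB and 1773 CPM in PBS for S-phase genes, and 2198 CPM in TB and 2143 CPM in PBS for mitotic genes. In NK cells below the threshold the S-phase ratio was 0.991 (0.952 to 1.03) and the mitotic ratio 0.849 (0.788 to 0.914). Cells were called cycling on 2 genes of the mitotic list, so the levels of cycling cells are a description.

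The helicase and clamp genes of the S-phase list had ratios near 1 in NK cells. The MCM helicase is loaded on origins before S phase, and its 6 genes had log2 ratios of TB to PBS between -0.17 (Mcm2) and -0.08 (Mcm5). Mcm6 had 1158 UMIs (95.7 CPM) in TB and 1309 UMIs (107 CPM) in PBS, a log2 ratio of -0.16. Pcna, the sliding clamp of DNA polymerase, had 1636 UMIs (135 CPM) in TB and 1723 UMIs (141 CPM) in PBS, a ratio of 0.962 (0.898 to 1.03). Its interval spans 1.

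Genes of nucleotide supply had a wider spread. Tyms, thymidylate synthase, had 343 UMIs (28.4 CPM) in TB and 465 UMIs (38.0 CPM) in PBS, a ratio of 0.747 (0.648 to 0.861). Tk1, thymidine kinase, had 215 UMIs (17.8 CPM) in TB and 277 UMIs (22.6 CPM) in PBS, a ratio of 0.786 (0.655 to 0.943). Rrm1 and Rrm2, the subunits of ribonucleotide reductase, had log2 ratios of -0.30 and -0.15. Dut, which hydrolyses dUTP, had 1655 UMIs (137 CPM) in TB and 1836 UMIs (150 CPM) in PBS, a log2 ratio of -0.13. Among chromatin and clamp-associated genes, Uhrf1, a maintenance methylation cofactor, had a log2 ratio of -0.29, Pclaf, a PCNA-binding protein, -0.24, and Hells -0.15.

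All 15 S-phase genes were measured in NK cells (50 or more UMIs over both libraries) and all 15 lay below 0, with a median log2 ratio of -0.15. None was past 1.5-fold, where 1.58% of the 10352 measured genes were past 1.5-fold higher in TB and 3.36% past 1.5-fold lower. The median over all measured NK genes was 0.00. Of the 24 mitotic genes, all measured, 23 lay below 0 with a median of -0.38, 3 were past 1.5-fold lower and 0 past 1.5-fold higher. Without the Rhox5 and Cald1 barcodes these medians were -0.21 and -0.43, with 15 of 15 and 23 of 24 below 0 again.

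Both genes that define cycling cells were among the lower mitotic genes, which the share already uses. Mki67 had 845 UMIs (69.9 CPM) in 164 TB cells and 1397 UMIs (114 CPM) in 276 PBS cells, a ratio of 0.613 (0.562 to 0.668). Top2a had 1057 UMIs (87.4 CPM) in 225 TB cells and 1495 UMIs (122 CPM) in 358 PBS cells, a ratio of 0.716 (0.661 to 0.775). Their intervals lie below 1.

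The cyclins and their kinase were not alike. Ccna2, cyclin A2, which acts in S phase and G2, had the lowest ratio of the list: 112 UMIs (9.26 CPM) in TB and 202 UMIs (16.5 CPM) in PBS, a ratio of 0.561 (0.442 to 0.711). Cdk1 had a log2 ratio of -0.51 and Ccnb1, cyclin B1, of -0.39. Ccnb2, cyclin B2, had 338 UMIs (27.9 CPM) in TB and 352 UMIs (28.7 CPM) in PBS, a ratio of 0.972 (0.835 to 1.13) that was not distinguishable from 1.

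Kinetochore genes spread in the same way. Cenpe, the kinetochore motor, had a log2 ratio of -0.53, Cenpf, a kinetochore and nuclear matrix protein, of -0.49, and the checkpoint genes Bub1 and Bub1b of -0.40 and -0.38. Cenpa, the centromeric histone variant, was the only mitotic gene above 0: 1401 UMIs (116 CPM) in 460 TB cells and 1357 UMIs (111 CPM) in 458 PBS cells, a ratio of 1.05 (0.970 to 1.13). Its interval spans 1. Cenpa RNA was found in 42.1% of TB and 36.3% of PBS NK cells, many more than carried Mki67 (15.0% in TB and 21.9% in PBS).

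Among mitotic kinases and the chromosomal passenger complex, Plk1, polo-like kinase 1, had 73 UMIs (6.04 CPM) in TB and 115 UMIs (9.39 CPM) in PBS, a ratio of 0.643 (0.473 to 0.869), the third gene past 1.5-fold beside Mki67 and Ccna2. Aurkb, the kinase of the passenger complex, had a log2 ratio of -0.49, Birc5, survivin of the same complex, of -0.20, and Aurka, the spindle pole kinase, of -0.37 on few UMIs. The spindle genes ranged from -0.50 (Kif11, the bipolar spindle motor) through -0.32 (Nusap1), -0.20 (Prc1, a midzone bundler), -0.19 (Hmmr and Kif20a) and -0.13 (Kif23, a cytokinesis motor) to -0.11 (Tpx2, an activator of Aurora A). Of the genes of mitotic exit, Ube2c, the ubiquitin-conjugating enzyme of the anaphase-promoting complex, had a log2 ratio of -0.42 and Cdc20 of -0.19. Stmn1 had 1866 UMIs (154 CPM) in TB and 2142 UMIs (175 CPM) in PBS, a ratio of 0.882 (0.829 to 0.939).

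**Figure D3:**
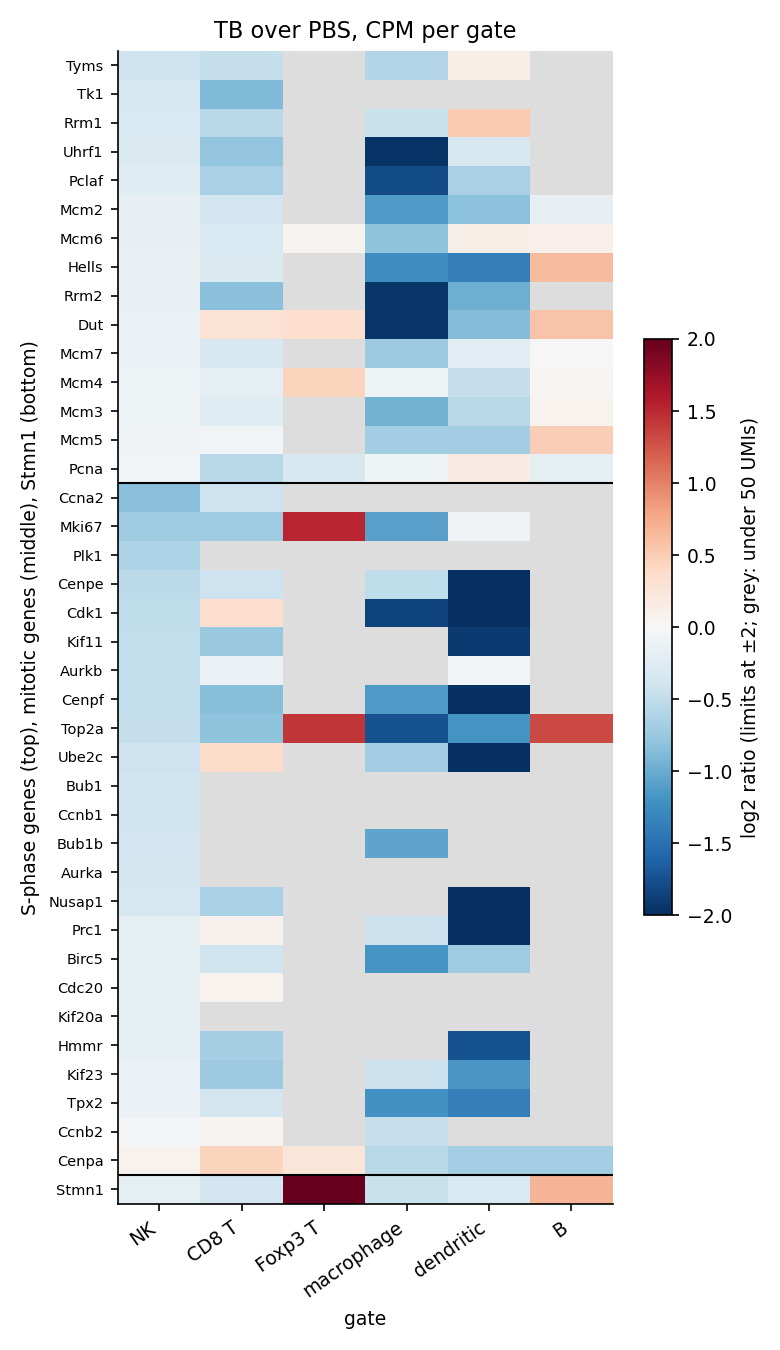
Log2 ratio of TB to PBS, from CPM of the gate, for each of the 40 genes (rows: S-phase, then mitotic, then Stmn1, each ordered by the NK value) in 6 gates (columns); blue is lower and red higher in TB, colours stop at ±2, and grey marks genes with fewer than 50 UMIs. The NK column is pale blue for 15 of 15 S-phase genes and deeper blue in the mitotic list, with Cenpa just above 0; the dendritic and macrophage columns include the deep Rhox5 and Cald1 barcodes.

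Cell cycle genes outside the 40 lay in the same range in NK cells. Of 16 further replication genes, all measured, 13 lay below 0 (median log2 ratio -0.21) and 1 was past 1.5-fold lower: Cdc6, a licensing factor, with 72 UMIs (5.95 CPM) in TB and 129 UMIs (10.5 CPM) in PBS. Slbp, the histone mRNA binding protein, was the highest at a log2 ratio of 0.06. Of 23 measured mitosis genes of 24, 22 lay below 0 (median -0.28) and 5 were past 1.5-fold lower, with Ttk, a spindle checkpoint kinase, the lowest at 23 UMIs (1.90 CPM) in TB and 49 UMIs (4.00 CPM) in PBS. Racgap1, a cytokinesis factor, was the highest at 0.04.

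The G1 list split. Ccne2, cyclin E2, which acts at the entry to S phase, had 59 UMIs (4.88 CPM) in TB and 121 UMIs (9.88 CPM) in PBS, a ratio of 0.494 (0.355 to 0.680). Ccnd2, the D-type cyclin, was the highest of the 12 at 570 CPM in TB and 512 CPM in PBS, a ratio of 1.11 (1.08 to 1.15). Of 10 measured inhibitor and quiescence genes none was past 1.5-fold, with log2 ratios between -0.32 (Cdkn1a, a cyclin-dependent kinase inhibitor) and 0.22 (Klf2, a quiescence factor).

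Cycling NK cells were compared with the other NK cells of the same library, where TB and PBS give a repeat of the comparison. Cycling cells were deeper, with medians of 17398 UMIs against 8063 UMIs in TB and 14002 against 6751 in PBS. All 15 S-phase genes, and all 22 mitotic genes other than Mki67 and Top2a, were at least 1.5-fold higher in cycling cells in both libraries, where 6.74% of all measured genes were higher and 3.04% lower in both. The median S-phase gene was 3.12-fold higher in TB and 3.07-fold in PBS, and the median mitotic gene 32.4-fold in TB and 16.3-fold in PBS. Cycling cells held a smaller share of the S-phase UMIs than of the mitotic UMIs: 51.4% of the S-phase UMIs of the NK gate in TB and 61.0% in PBS, against 82.4% in TB and 85.6% in PBS for the mitotic list. Stmn1 was 12.1-fold higher in cycling cells in TB and 11.4-fold in PBS. Outside the 40 genes, E2f1, a factor of S-phase entry, had ratios of cycling to other cells of 5.70 (3.93 to 8.36) in TB and 3.73 (2.73 to 5.14) in PBS, and Klf2 of 0.451 (0.383 to 0.528) in TB and 0.438 (0.376 to 0.508) in PBS. These 2 were chosen after their values were seen.

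Of 30 function genes, 26 were measured in NK cells, and 0 were past 1.5-fold higher and 5 past 1.5-fold lower in cycling cells in both libraries. Without the deepest 5% of cells the counts were 1 higher and 3 lower. Ccl5, a chemokine, was the lowest: 447 CPM in cycling and 2934 CPM in other cells in TB (ratio 0.152, 0.144 to 0.161), and 191 and 1228 CPM in PBS (ratio 0.156, 0.145 to 0.168). Itgam, an integrin chain of mature NK cells, had ratios of 0.181 (0.113 to 0.275) in TB and 0.293 (0.194 to 0.428) in PBS. Il7r, the IL-7 receptor chain, had ratios of 0.619 in TB and 0.288 in PBS. Ly6c2, a surface glycoprotein of mature lymphocytes, had ratios of 0.389 in TB and 0.570 in PBS, and Gzma, granzyme A, of 0.496 (0.485 to 0.508) in TB and 0.563 (0.550 to 0.577) in PBS.

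Granzymes did not move together. Gzmb, granzyme B, had ratios of 0.760 in TB and 0.758 in PBS, while Gzmc, granzyme C, was higher in cycling cells, at 8838 CPM against 6524 CPM in other cells in TB (ratio 1.35, 1.34 to 1.37) and 10308 against 7798 CPM in PBS (ratio 1.32, 1.31 to 1.34). Klrg1, an inhibitory receptor, had ratios of 1.12 (0.894 to 1.41) in TB and 1.36 (1.09 to 1.68) in PBS, and Ccr7 of 1.99 in TB and 1.24 in PBS on few UMIs.

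**Figure D4:**
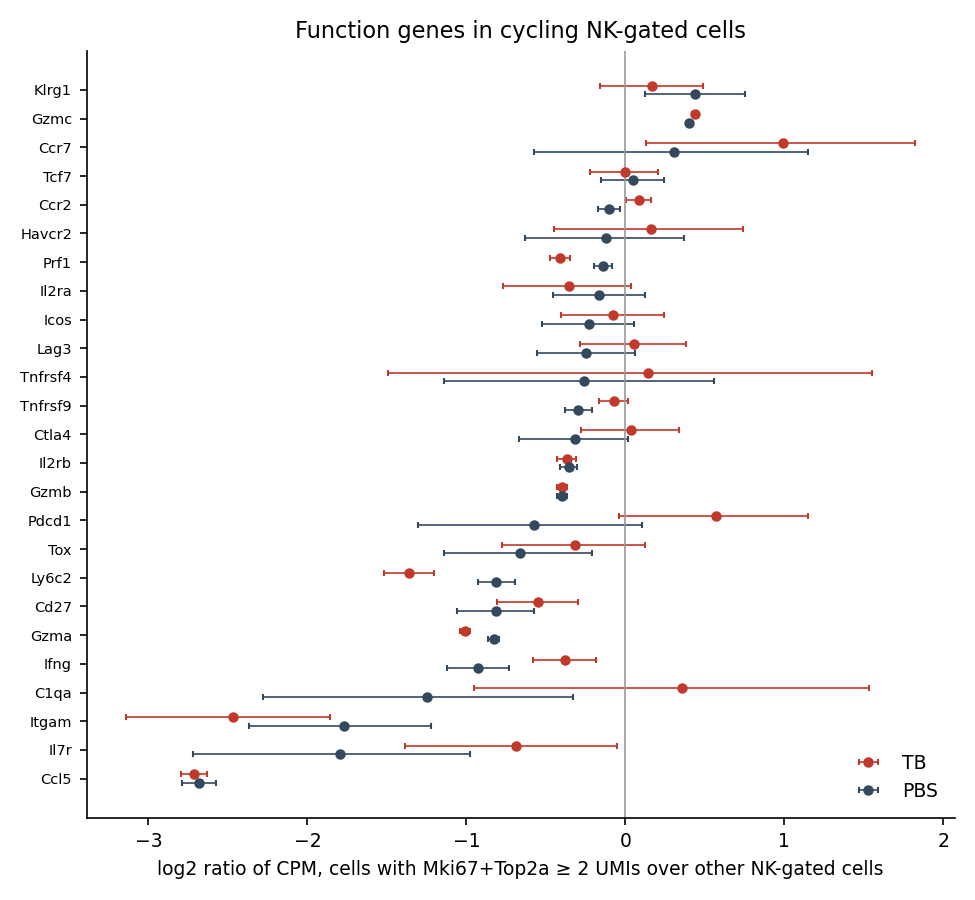
Log2 ratio of CPM (x axis) of cycling NK cells over the other NK cells of the same library for 25 of the 26 measured function genes (y axis, ordered by PBS), with TB in red above PBS in dark; bars are exact 95% intervals of counting error. Ccl5, Itgam, Ly6c2 and Gzma lie left of 0 in both libraries and Gzmc right of 0 in both.

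CD8 T cells had close shares of cycling cells in both libraries but lower list totals in TB. The S-phase list stood at 930 CPM in TB and 1161 CPM in PBS (ratio 0.801, 0.757 to 0.848) and the mitotic list at 801 CPM in TB and 1052 CPM in PBS (ratio 0.762, 0.717 to 0.809). At 2000 UMIs per cell both ratios were near 1, at 0.979 (0.856 to 1.12) and 1.03 (0.889 to 1.19), and with each cell scaled alike they were 0.884 and 0.912. Cycling CD8 T cells were deeper in PBS, with a median of 9508 UMIs in TB and 11628 UMIs in PBS. Of the 15 S-phase genes 14 lay below 0 (median log2 ratio -0.39) and 4 were past 1.5-fold lower, where 7.56% of measured genes were lower and 6.63% higher. Of 18 measured mitotic genes 12 lay below 0 (median -0.41), 7 past 1.5-fold lower and 0 past 1.5-fold higher. Few cells set these levels: the 3 leading cells held 25.9% of the mitotic UMIs of the gate in TB and 28.1% in PBS.

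Named members in the CD8 T gate pointed both ways. Dut had 584 UMIs (196 CPM) in TB and 302 UMIs (160 CPM) in PBS, a ratio of 1.22 (1.06 to 1.41), and Mcm5 one of 0.966. Tk1 and Rrm2 were the lowest S-phase genes at ratios of 0.543 (0.363 to 0.810) and 0.558 (0.404 to 0.769). Cenpa had 280 UMIs (93.9 CPM) in TB and 130 UMIs (69.0 CPM) in PBS, a ratio of 1.36 (1.10 to 1.69), and Ube2c a ratio of 1.29 (1.02 to 1.66). Cenpf and Top2a were the lowest mitotic genes, at ratios of 0.555 (0.441 to 0.698) and 0.573 (0.498 to 0.660). The remaining genes with most UMIs were Pcna at 119 CPM in TB and 175 CPM in PBS, Pclaf at 97.9 and 153 CPM, Mki67 at 94.5 and 154 CPM, and Stmn1 at 173 and 227 CPM.

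Outside the 40 genes, the CD8 T gate showed wider differences. Cdkn2a, which encodes a cyclin-dependent kinase inhibitor, had 61 UMIs (20.4 CPM) in 44 TB cells and 4 UMIs (2.12 CPM) in 2 PBS cells, a ratio of 9.63 (3.58 to 36.5). Cdk6, the partner of D-type cyclins, had 279 CPM in TB and 144 CPM in PBS (ratio 1.94, 1.69 to 2.23). Klf2 was the lowest inhibitor or quiescence gene at 237 CPM in TB and 389 CPM in PBS (ratio 0.609, 0.549 to 0.676). Rpa2, of the single-strand DNA binding complex, had a ratio of 1.86, against 0.395 for Cdc6, 0.390 for Ccne2 and 0.463 for Esco2, a cohesin acetyltransferase; Spc25, of the kinetochore NDC80 complex, had 1.43 (0.815 to 2.60).

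In cycling CD8 T cells all 15 S-phase and all 16 measured mitotic genes were at least 1.5-fold higher than in the other CD8 T cells in both libraries, where 8.24% of measured genes were higher and 2.9% lower in both. Of 24 measured function genes 3 were higher and 2 lower. Ctla4 had ratios of 1.69 in TB and 2.02 in PBS, Havcr2, an inhibitory receptor, of 1.60 in TB and 2.16 in PBS, and Gzmc of 1.55 in TB and 1.94 in PBS. Il7r was lower, with ratios of 0.477 in TB and 0.409 in PBS. Ccr7, a homing receptor, had ratios of 0.668 in TB and 0.366 in PBS, Ccl5 of 0.747 in TB and 0.416 in PBS, and Tnfrsf4, a costimulatory receptor, of 1.45 in TB and 1.72 in PBS. Gzma differed between the libraries, with a ratio of 1.53 (1.19 to 1.96) in TB and 0.316 (0.198 to 0.483) in PBS, and the difference was not tested.

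Foxp3 T cells were few, and a handful of cells set their list levels. The S-phase list stood at 594 CPM in TB and 367 CPM in PBS (ratio 1.62, 1.39 to 1.88) and the mitotic list at 947 CPM in TB and 304 CPM in PBS (ratio 3.11, 2.70 to 3.60). In TB 3 cells held 404 of the 510 mitotic UMIs (79.2%), while in PBS the leading 3 held 25 of 309 (8.09%). Without the leading cell of each library the mitotic ratio was 1.93 (1.64 to 2.27), and with each cell scaled alike it was 1.5. Without the 3 cells with most UMIs of both lists in each library the mitotic list turned, at 218 CPM in TB and 297 CPM in PBS (ratio 0.733, 0.581 to 0.918), and the S-phase list stood at 386 CPM in TB and 349 CPM in PBS (ratio 1.11, 0.922 to 1.33). Most mitotic UMIs of the gate in TB thus came from 3 cells. The removal itself favours a lower ratio, because the cells were picked on their list UMIs. None of the 3 TB cells had a Rhox5 or Cald1 UMI, and Foxp3 T check markers were at 6205 CPM in TB and 6562 CPM in PBS in all.

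Only 4 S-phase and 3 mitotic genes reached 50 UMIs in the Foxp3 T gate. Mki67 had 107 UMIs in 19 TB cells (199 CPM) and 70 UMIs in 49 PBS cells (68.9 CPM), a ratio of 2.88 (2.11 to 3.95). Top2a had a ratio of 2.70 (1.91 to 3.84), on 83 UMIs in 20 TB cells and 58 UMIs in 44 PBS cells. Cenpa, at 126 CPM in TB and 106 CPM in PBS, had a ratio of 1.19 (0.863 to 1.62). Without the 3 leading cells of each library these ratios were 0.588 (0.327 to 1.01) for Mki67, 0.879 (0.514 to 1.46) for Top2a and 0.833 (0.572 to 1.19) for Cenpa. All 3 intervals span 1, and the same limit of that removal applies. Background in this gate was 4.77% higher and 6.77% lower. Of the S-phase genes Pcna, Mcm6, Dut and Mcm4 had ratios of 0.797, 1.04, 1.26 and 1.37, and every interval spans 1. Stmn1 had 64 UMIs in 8 TB cells and 11 UMIs in 11 PBS cells, a ratio of 11.0 (5.74 to 23.1), and 1.10 (0.335 to 3.26) without those cells. Cdkn1b, a cyclin-dependent kinase inhibitor, had 193 CPM in TB and 333 CPM in PBS (ratio 0.580, 0.461 to 0.725), and Cdkn1a was the highest inhibitor at a ratio of 1.49 (0.922 to 2.39). Of 7 other pathway genes of replication and mitosis that were measured, Smc2, a condensin subunit, had the highest ratio of 2.83 (1.68 to 4.84), on 39 UMIs in 13 TB cells and 26 UMIs in 21 PBS cells, and Smc4, its condensin partner, the lowest of 0.892 (0.725 to 1.09). Lig1, DNA ligase I, had a ratio of 1.89 (1.14 to 3.13) and Slbp of 1.42 (1.03 to 1.96). Cdk6 was close in level, at 345 CPM in TB and 342 CPM in PBS, and Ccnd3, a D-type cyclin, had a ratio of 0.863 (0.641 to 1.15).

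Macrophages held little of either list, and less in TB. The S-phase list stood at 165 CPM in TB and 259 CPM in PBS (ratio 0.640) and the mitotic list at 124 CPM in TB and 244 CPM in PBS (ratio 0.507). A single PBS barcode of 122345 UMIs, with Rhox5 and Cald1 RNA, held 23.5% of the S-phase and 22.5% of the mitotic UMIs of its gate. Without the Rhox5 and Cald1 barcodes the levels were 165 CPM in TB and 204 CPM in PBS for S phase (ratio 0.811, 0.748 to 0.879) and 124 CPM in TB and 195 CPM in PBS for mitosis (ratio 0.638, 0.585 to 0.695). Both lists kept their direction. The neutrophil gate stood at 76.1 CPM in TB and 109 CPM in PBS for S phase and at 57.5 CPM in TB and 120 CPM in PBS for mitosis, so its mitotic level was lower in TB too (ratio 0.478, 0.298 to 0.764).

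Over all macrophage-gated cells 14 of 14 measured S-phase genes lay below 0 (median log2 ratio -0.87), 11 of them past 1.5-fold lower, and 13 of 13 measured mitotic genes (median -1.05), 8 of them past 1.5-fold lower, where 7.72% of measured genes were lower and 2.82% higher. Without the Rhox5 and Cald1 barcodes 11 of 12 S-phase genes lay below 0 (median -0.33) with 3 past 1.5-fold lower, and 11 of 13 mitotic genes (median -0.58) with 6 past 1.5-fold lower and 1, Ccnb2, past 1.5-fold higher, where 6.06% of genes were lower. Dut was the lowest S-phase gene there, at 6.23 CPM in TB and 15.7 CPM in PBS, and Top2a the lowest mitotic gene, at 6.72 CPM in TB and 16.7 CPM in PBS. Pcna, which also serves DNA repair, was at 84.5 CPM in TB and 89.0 CPM in PBS, and Mcm4 at 10.4 CPM in TB and 9.52 CPM in PBS. In the whole gate, those barcodes included, Pclaf had 86 UMIs in 54 TB cells and 104 UMIs in 53 PBS cells (ratio 0.288, 0.214 to 0.387), Rrm1 a ratio of 0.733 (0.543 to 0.998), and Uhrf1 one of 0.258 (0.144 to 0.458). Of the mitotic list Cenpa had a ratio of 0.681 (0.575 to 0.809), Tpx2 of 0.430 (0.329 to 0.564) and Cdk1 of 0.277 (0.167 to 0.455), while Prc1 and Kif23 were the highest at 0.744 (0.439 to 1.30) and 0.741 (0.519 to 1.07). Stmn1 had 226 UMIs (18.2 CPM) in TB and 107 UMIs (24.7 CPM) in PBS, a ratio of 0.735 (0.582 to 0.934).

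Other cell cycle genes of the whole macrophage gate had a wider spread. Klf2 had a ratio of 1.90 (1.73 to 2.09), at 238 CPM in TB and 125 CPM in PBS, and Rbl2, a pocket protein of quiescence, the lowest inhibitor ratio of 0.743 (0.568 to 0.978). Slbp, at 51.0 CPM in TB and 49.9 CPM in PBS, was the highest replication gene, and Chaf1a, a chromatin assembly subunit, the lowest at a ratio of 0.305 (0.177 to 0.522). Cks2, a Cdk-binding subunit, had a ratio of 0.902 (0.766 to 1.06), and Cdca8, of the passenger complex, one of 0.398 (0.246 to 0.645). E2f2 had a ratio of 1.28 (1.02 to 1.60) and Myc, a growth factor-responsive transcription factor, one of 0.619 (0.446 to 0.867).

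Cycling macrophages, 38 in TB and 22 in PBS with the Rhox5 and Cald1 barcodes included, had 9 of 14 S-phase and 9 of 11 mitotic genes at least 1.5-fold higher than other macrophages in both libraries, where 9.66% of genes were higher and 6.01% lower in both. Stmn1 was 7.77-fold higher in TB and 7.95-fold in PBS. In PBS the deep barcode made up 43.7% of the UMIs of these cells, 84.3% of their S-phase UMIs and 54.2% of their mitotic UMIs. Without such barcodes 4 of 12 S-phase genes and 10 of 11 mitotic genes were at least 1.5-fold higher in both libraries, and Stmn1 was 8.05-fold higher in TB and 6.32-fold in PBS. Of 19 measured function genes 0 were then higher and 3 lower in both. The shares over all genes were not counted without such barcodes, so these counts have no background beside them. Among the 3, Ccr7 had 0 UMIs in cycling cells of both libraries, and Tnfrsf4 had 0 in TB and 1 in PBS. Their intervals reach above 1. Ccl5 had ratios of 0.236 (0.167 to 0.325) in TB and 0.285 (0.180 to 0.429) in PBS without those barcodes. Mrc1, the mannose receptor, had ratios of 1.01 (0.625 to 1.54) in TB and 0.331 (0.0397 to 1.22) in PBS, Gzma of 0.353 (0.0723 to 1.05) in TB and 0.744 (0.337 to 1.43) in PBS, and Havcr2 of 0.731 (0.537 to 0.973) in TB and 0.436 (0.198 to 0.834) in PBS.

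Dendritic cells gave no stable direction. The S-phase list stood at 492 CPM in TB and 657 CPM in PBS and the mitotic list at 452 CPM in TB and 1343 CPM in PBS, but a single PBS barcode of 185151 UMIs held 1289 of 1512 mitotic UMIs (85.3%). Without the Rhox5 and Cald1 barcodes the levels were 309 CPM in TB and 292 CPM in PBS for S phase (ratio 1.06, 0.904 to 1.24). For mitosis they were 319 CPM in TB and 205 CPM in PBS (ratio 1.55, 1.30 to 1.86), the opposite direction. These values keep 1 TB cell of 31460 UMIs with 297 mitotic UMIs and 0 UMIs of Rhox5 and Cald1. That cell held 41.8% of the 710 mitotic UMIs of the whole TB gate, and the ratio without it was not computed. The whole gate had 10 of 14 measured S-phase genes and 15 of 15 mitotic genes below 0, 6 and 13 of them past 1.5-fold lower, against 11.9% of genes lower and 8.47% higher. The lowest mitotic genes were Cenpe, at 16 UMIs in 6 TB cells and 127 UMIs in 4 PBS cells (ratio 0.0904), and Prc1, at 17 UMIs in 4 TB cells and 105 UMIs in 5 PBS cells (ratio 0.116), and the highest were Aurkb at 0.967 and Mki67 at 0.949. Top2a, Ube2c and Cenpa, which had most UMIs, had ratios of 0.437, 0.173 and 0.624. Of the S-phase list Hells (0.387) and Rrm2 (0.510) were the lowest and Rrm1 (1.44) and Pcna (1.13) the highest, with Dut at 0.548 and Mcm6 at 1.08. Stmn1 had a ratio of 0.809 (0.641 to 1.02). Without those barcodes only 4 S-phase and 3 mitotic genes were measured. Mki67 and Top2a were then higher in TB, at 47.8 and 44.4 CPM in TB against 16.9 and 20.5 CPM in PBS. The TB levels rest on 70 and 65 UMIs, and the TB cell of 31460 UMIs held 109 of the 2 genes together. The order of these 2 genes without that cell was not computed. Among other cell cycle genes of the whole gate, Rb1, the retinoblastoma protein gene, had a ratio of 1.87 (1.16 to 3.09) and Cdkn2d, an inhibitor, one of 0.768 (0.607 to 0.971). Ccnd3 had a ratio of 1.29 (1.09 to 1.52), Cdk4 of 0.764 (0.554 to 1.05), Slbp of 1.14 (0.817 to 1.61), Cdt1, a licensing factor, of 0.443 (0.244 to 0.786), Smc2 of 1.02 (0.692 to 1.5), and Cdca3, a mitotic entry factor, of 0.293 (0.165 to 0.502).

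B cells had low levels of both lists. The S-phase list stood at 325 CPM in TB and 299 CPM in PBS (ratio 1.09, 0.940 to 1.26) and the mitotic list at 145 CPM in TB and 172 CPM in PBS (ratio 0.847, 0.695 to 1.04), where 9% of genes were past 1.5-fold higher in TB and 8.8% lower. Hells and Top2a were the highest, at ratios of 1.55 and 2.49, on 43 and 44 UMIs in TB and 11 and 7 UMIs in PBS. Cenpa, at 60.1 CPM in TB and 96.2 CPM in PBS, had a ratio of 0.624 (0.471 to 0.832). Of 9 measured S-phase genes 7 lay above 0 (median log2 ratio 0.08), with Dut at a ratio of 1.48 (0.960 to 2.35), Mcm7 at 1.01, Mcm2 at 0.895 and Pcna at 0.870 (0.658 to 1.16). Stmn1 had a ratio of 1.60 (0.995 to 2.68). Without the 2 TB barcodes with Rhox5 and Cald1 RNA, Hells had a ratio of 0.862, Top2a of 1.17 and Stmn1 of 0.842, and all 5 S-phase genes that were still measured lay below 0 (median log2 ratio -0.34). Those 2 barcodes held 35.2% of the S-phase UMIs of the gate in TB, and without them the list ratios were 0.767 (0.657 to 0.896) and 0.693 (0.562 to 0.857), so the S-phase order turned. Outside the 40 genes, Ccnd1, a D-type cyclin, had 99 UMIs in only 6 TB cells and 5 UMIs in 5 PBS cells, while Myc had 28.4 CPM in TB and 85.8 CPM in PBS (ratio 0.331, 0.233 to 0.471) and Klf2 733 CPM in TB and 1483 CPM in PBS (ratio 0.494, 0.459 to 0.532). Cdkn2d had a ratio of 1.40 (0.947 to 2.11), Lig1 of 1.32 (0.678 to 2.76), Slbp of 0.812 (0.632 to 1.05), Cks2 of 1.17 (0.682 to 2.08) and Smc4 of 0.864 (0.667 to 1.13), and each of these intervals spans 1.

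**Figure D5:**
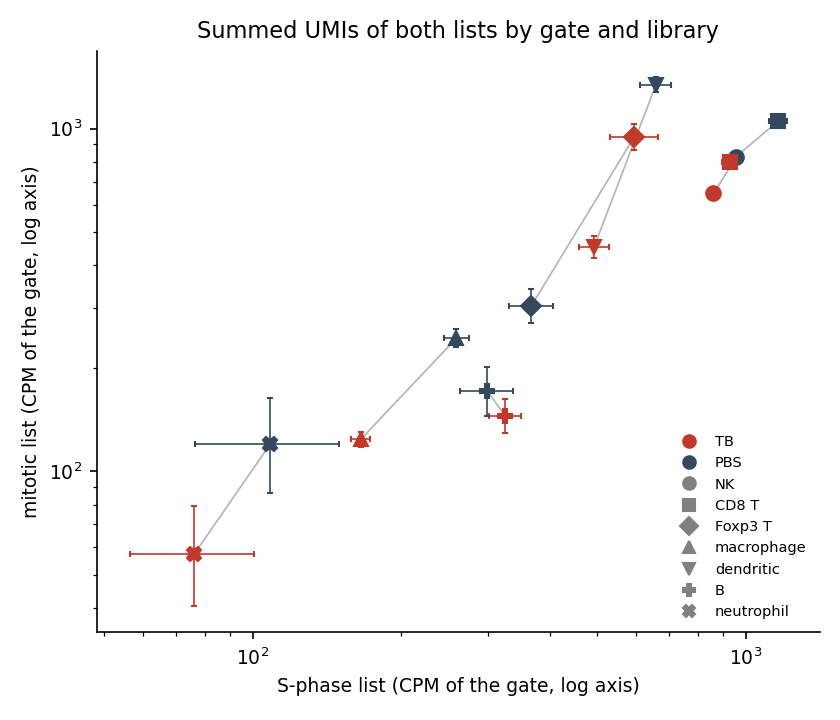
Summed level of the mitotic list (y axis, CPM of the gate, log axis) against that of the S-phase list (x axis, CPM of the gate, log axis) for 7 gates (symbols) in TB (red) and PBS (dark), joined by a grey line per gate; bars are exact Poisson intervals. NK, CD8 T and macrophage points lie lower in TB on both axes, Foxp3 T points higher in TB with 3 cells holding 79.2% of the mitotic UMIs, and the dendritic PBS point is set by 1 barcode.

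Cycling barcodes outside every gate were more frequent in PBS. They numbered 31 of 845 ungated cells (3.67%) in TB and 140 of 2248 (6.23%) in PBS. Of these, 6 in TB and 40 in PBS carried at least 5 UMIs of both Rhox5 and Cald1. The Rhox5 and Cald1 barcodes held 13.9% of all mitotic UMIs in TB and 28.1% in PBS, so totals over whole libraries, 496 CPM in TB and 849 CPM in PBS for the mitotic list, are not levels of immune cells alone.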

How the data were processed

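The authors deposited raw UMI counts per gene and barcode, made with Cell Ranger 6.1.2 per the file headers; mm10, Seurat 3.0 and R 3.5.3 are named in the submitters' processing notes. The labels name a 3' library kit. The 40 genes and all lists were chosen with earlier results of these data known. Here kept cells had 200 or more detected genes and at most 20% mitochondrial UMIs. The libraries held 52973138 UMIs in 6724 barcodes (TB) and 46348444 UMIs in 7803 barcodes (PBS).

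Gates used summed UMIs: 2 for T (Cd3d, Cd3e, Cd3g), 2 for NK (Ncr1, Klrb1c, Klre1), 4 for macrophage (C1qa, C1qb, C1qc, Adgre1, Fcgr1 and 1 other gene), 2 for dendritic (Flt3, Zbtb46, Xcr1, Clec9a, Cd209a, Fscn1, with 10 of H2-Aa, H2-Ab1 and Cd74), 3 for B (Cd79a, Cd79b, Ms4a1 and 1 other gene) and 3 for neutrophil (Csf3r, Retnlg, Cxcr2). CD8 T cells needed 2 UMIs of Cd8a and Cd8b1 and 0 of Foxp3, and Foxp3 T cells 1 of Foxp3 and 0 of Cd8a and Cd8b1. No doublet caller was run; barcodes of 2 or more lineages were set aside.

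UMIs were summed per gate and library and divided by the gate's total (CPM). Genes needed 50 UMIs over both libraries, and a library at 0 was set to 3 UMIs in log2 ratios. Intervals are exact (Clopper-Pearson, Poisson, conditional binomial) and treat UMIs and cells as independent. The ratio interval was tested on simulated data drawn with the same independence. That check cannot cover UMIs that gather in few cells, where the intervals of levels and ratios are too narrow. In the NK gate the 3 leading cells held 13.5% of the mitotic UMIs in TB and 11.3% in PBS. For judging alternatives only, medians had a binomial order-statistic interval over genes and the ratio of S-phase to mitotic UMI ratios a normal one. No p-value was computed. Per gate and list the text names the 3 genes with most UMIs and the 2 highest and 2 lowest ratios, the highest and lowest of each pathway list, and up to 4 function genes at each end with 1 direction in both libraries, ranked by the mean of the log2 ratios; other members named are ordered by role. The unnamed gate genes and 1 function gene are not reported here. Promoters are RefSeq's, GRCm38.p6. Alternatives changed depth, thresholds, gates, filters, scaling and single barcodes. Python 3.11.15, numpy 2.4.6, scipy 1.17.1 and pandas 2.3.3 were used.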

Additional observations from a re-analysis of the deposited data

Results flagged for a closer look

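List levels moved past 1.5-fold in opposite directions between TB and PBS in some gates, and the difference was not tested, since each group is 1 library. The S-phase list had a ratio of TB to PBS of 1.62 in Foxp3 T cells and of 0.640 in macrophages, so the ratios differed by a factor of 2.53. The mitotic list had a ratio of 3.11 in Foxp3 T cells, against 0.507 in macrophages, a factor of 6.14, and against 0.337 in dendritic cells, a factor of 9.24. In TB 3 cells held 79.2% of the mitotic UMIs of the Foxp3 T gate, and in PBS 1 barcode held 85.3% of those of the dendritic gate. Without the 3 leading cells of each library the Foxp3 T mitotic ratio was 0.733 (0.581 to 0.918) and the S-phase ratio 1.11. That removal favours a lower ratio, because the cells were picked on their list UMIs. At 2000 UMIs per cell the Foxp3 T S-phase ratio was 1.03. Without the Rhox5 and Cald1 barcodes the dendritic mitotic ratio turned to 1.55 (1.30 to 1.86), a value that keeps 1 TB cell with 297 mitotic UMIs. The macrophage ratios were then 0.811 for the S-phase and 0.638 for the mitotic list.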

How the results depend on the processing

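Of 384 alternative values, 269 stayed within the interval of the value reported, or within 1.5 times a reported count, 97 moved beyond it and 18 turned direction, and the cause was not tested. In the NK gate the direction held in each alternative run: the ratio of TB to PBS ranged from 0.477 to 0.743 for the share of cycling cells, from 0.740 to 0.899 for the S-phase list, from 0.618 to 0.788 for the mitotic list and from 0.434 to 0.579 for the share of cells with mitotic UMIs. The exception was the share with S-phase UMIs only, from 0.624 (1000 UMIs per cell) to 1.01. No alternative put the barcodes positive for both T and NK markers into the NK gate, so these ranges do not cover them. Those barcodes had close cycling shares, 25.6% of 583 in TB and 26.0% of 603 in PBS. The CD8 T share of cycling cells had a ratio from 0.769 to 1.07. Values below are ratios of TB to PBS, or medians of log2 ratios where so named, by gate. The ratio of S-phase to mitotic UMIs, the state gene counts, the counts over all genes, leaving out the leading barcode, the 3 leading Foxp3 T barcodes or the Rhox5 and Cald1 barcodes, and the alternatives for cells with S-phase or mitotic UMIs were chosen after seeing the data.

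With each cell thinned to 2000 UMIs, the share of cycling cells had ratios of 0.477 in NK cells and 0.326 in macrophages. The S-phase list had 0.814 in NK, 0.979 in CD8 T, 1.03 in Foxp3 T, 0.759 in macrophage and 0.760 in B cells, and turned to 1.29 in dendritic cells. The mitotic list had 0.618 in NK, 1.65 in Foxp3 T, 0.613 in macrophage, 0.831 in dendritic and 0.682 in B cells, and turned to 1.03 in CD8 T cells. The S-phase to mitotic UMI ratio was 1.32 in NK, 0.954 in CD8 T and 1.55 in dendritic cells. The median log2 ratio was -0.67 for the mitotic list in NK cells and turned to 0.0039 for the S-phase list in CD8 T cells. Thinned to 1000 UMIs, the share of cycling cells had ratios of 0.507 in NK and 2.05 in Foxp3 T cells. With a threshold of 4 UMIs it had 3.48 in Foxp3 T, 0.403 in macrophage and 0.313 in dendritic cells.

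With gate thresholds doubled, the S-phase list had 0.836 in NK, 0.664 in CD8 T, 1.39 in Foxp3 T and 0.788 in B cells, and turned to 1.76 in dendritic cells. The mitotic list had 0.748 in NK and 0.670 in CD8 T cells and turned to 1.60 in dendritic cells. The S-phase to mitotic UMI ratio was 1.11 in dendritic cells. Median log2 ratios were 0.71 and -0.29 for the S-phase list in dendritic and B cells and -0.31 for the mitotic list in dendritic cells. Genes past 1.5-fold numbered 339 higher and 413 lower in dendritic cells and 306 higher in B cells. With barcodes positive for NK and T markers kept in the T gates, the S-phase list had 1.20 in Foxp3 T cells, the mitotic list 0.678 in CD8 T and 2.41 in Foxp3 T cells, and the S-phase to mitotic UMI ratio was 1.18 in CD8 T cells. With at most 10% mitochondrial UMIs, the mitotic list had 0.818 in CD8 T cells.

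Without the deepest 5% of cells, the S-phase list had 0.740 in NK, 0.963 in CD8 T, 1.38 in Foxp3 T, 0.778 in macrophage and 0.767 in B cells, and turned to 1.37 in dendritic cells. The mitotic list had 0.674 in NK, 0.981 in CD8 T, 2.59 in Foxp3 T, 0.634 in macrophage and 0.693 in B cells, and turned to 1.10 in dendritic cells. The S-phase to mitotic UMI ratio was 1.10 in NK and 1.24 in dendritic cells. Median log2 ratios were -0.43 in NK, -0.12 in CD8 T and -0.34 in B cells for the S-phase list and -0.62 in NK cells for the mitotic list. Function genes past 1.5-fold in cycling NK cells of both libraries numbered 1 higher and 3 lower, and genes past 1.5-fold higher in TB numbered 296 in dendritic and 301 in B cells.

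With each cell scaled alike, the S-phase list had 0.804 in NK, 0.884 in CD8 T, 1.15 in Foxp3 T, 0.710 in macrophage and 0.742 in B cells, and turned to 1.04 in dendritic cells. The mitotic list had 0.620 in NK, 0.912 in CD8 T, 1.5 in Foxp3 T, 0.564 in macrophage and 0.881 in dendritic cells. Median log2 ratios were -0.31 in NK and -0.41 in B cells for the S-phase list and -0.83 in NK and -0.18 in dendritic cells for the mitotic list. With a minimum of 20 UMIs per gene the medians in Foxp3 T cells were 0.97 for the S-phase and 2.14 for the mitotic list.

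Without the leading barcode of each gate, the S-phase list had 0.858 in CD8 T, 1.38 in Foxp3 T, 0.811 in macrophage and 0.751 in B cells. The mitotic list had 1.93 in Foxp3 T and 0.614 in macrophage cells and turned to 1.35 in dendritic cells. The S-phase to mitotic UMI ratio was 1.15 in CD8 T and 0.716 in Foxp3 T cells and turned to 0.503 in dendritic cells. Median log2 ratios were -0.35 in macrophage and -0.39 in B cells for the S-phase list, and turned to 0.99 in dendritic cells for the mitotic list. Without the 3 leading barcodes of each library in Foxp3 T cells, the S-phase list had 1.11, the mitotic list turned to 0.733, its median log2 ratio to -0.26, and the S-phase to mitotic UMI ratio to 1.51. Without the Rhox5 and Cald1 barcodes, the S-phase list had 0.811 in macrophage and 0.767 in B cells and turned to 1.06 in dendritic cells, and the mitotic list had 0.638 in macrophage and 0.693 in B cells and turned to 1.55 in dendritic cells. The S-phase to mitotic UMI ratio turned to 0.681 in dendritic cells. Median log2 ratios were -0.33 in macrophage, 0.31 in dendritic and -0.34 in B cells for the S-phase list and turned to 1.11 in dendritic cells for the mitotic list. Genes past 1.5-fold numbered 308 higher and 441 lower in dendritic cells and 301 higher in B cells.

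No paired analysis was possible because each group is 1 library, and for the same reason leaving out a replicate was not run. A ratio was left out where a library had 0 cells past the threshold, and a median where fewer than 3 list genes reached the minimum. Small numbers of cells limit the Foxp3 T, dendritic and neutrophil gates.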
